A study of Mus musculus with 2 samples.

Results

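The genes described here encode zinc finger proteins and carry symbols of the form Zfp followed by a number, or Zkscan or Zscan followed by a number. They were measured in mouse liver after antagomir-122, a cholesterol-linked oligonucleotide complementary to the hepatocyte microRNA miR-122, and after mm-antagomir-122, its scrambled control. Mice of either group were injected on 3 days at 80 mg/kg body weight a day, and livers were taken 24 h after the last injection. RNA of 3 livers was pooled before labelling and each pool was hybridised to 1 single-colour Affymetrix array, so there were 2 arrays, 1 per group. The labels give no strain, age or sex. There was no replicate, so no test between the conditions was possible and no p-value is given. A fold describes 2 pools on 2 arrays, and the spread between animals is unknown.

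A gene entered the list through its brightest probe set, the set of short probes that reads 1 transcript, when the geometric mean of both arrays reached 238.2, called the floor below. Members were thus chosen by symbol and by signal. Zfp36, which encodes an RNA-decay factor of another kind, was left out by rule. Of 324 genes with such a symbol and a probe set annotated to 1 gene, 146 (45.1%) passed, and 178 did not. Over all genes on the array, 10003 of 18193 (55%) passed. Signal levels are therefore given as a description only. Just inside the floor lay Zfp92, Zfp180 and Zfp932, with mean signals of 240.5, 242.5 and 243.0. Just outside lay Zfp647, Zfp820 and Zfp81, with 236.7, 235.3 and 235.1.

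Zinc finger proteins hold short loops in which cysteine and histidine residues grip a zinc ion, and arrays of such loops can read DNA base by base. In mammals the largest group joins the fingers to a KRAB domain, which recruits the co-repressor Trim28 and through it the histone methyltransferase Setdb1 and heterochromatin proteins. Many of these genes arose by tandem duplication and silence transposable elements or imprinted loci. Others with the same kind of symbol bind RNA, serve ribosomes or act as ubiquitin or SUMO ligases. In liver, zinc finger repressors of this kind are known to act on sex-biased genes.

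By deposited values the 146 genes as a group did not lie to either side of the other genes. Their median log2 ratio of antagomir-122 over mm-antagomir-122 was 0.00, as it was over all 10003 genes. Ratios lay above 0 for 76 members (52.1%) and for 50.3% of all genes. At least 1.5-fold higher were 7 members (4.79%), where 5.12% of all genes were. At least 1.5-fold lower were 3 members (2.05%), where 2.62% of all genes were. Both shares were near the background, so neither is a result about zinc finger genes. The middle of the list ran from -0.20 to 0.24 on the log2 scale between its quartiles, and that of all genes from -0.19 to 0.21. Within 1.2-fold lay 87 members (59.6%) and 62.5% of all genes.

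**Figure D1:**
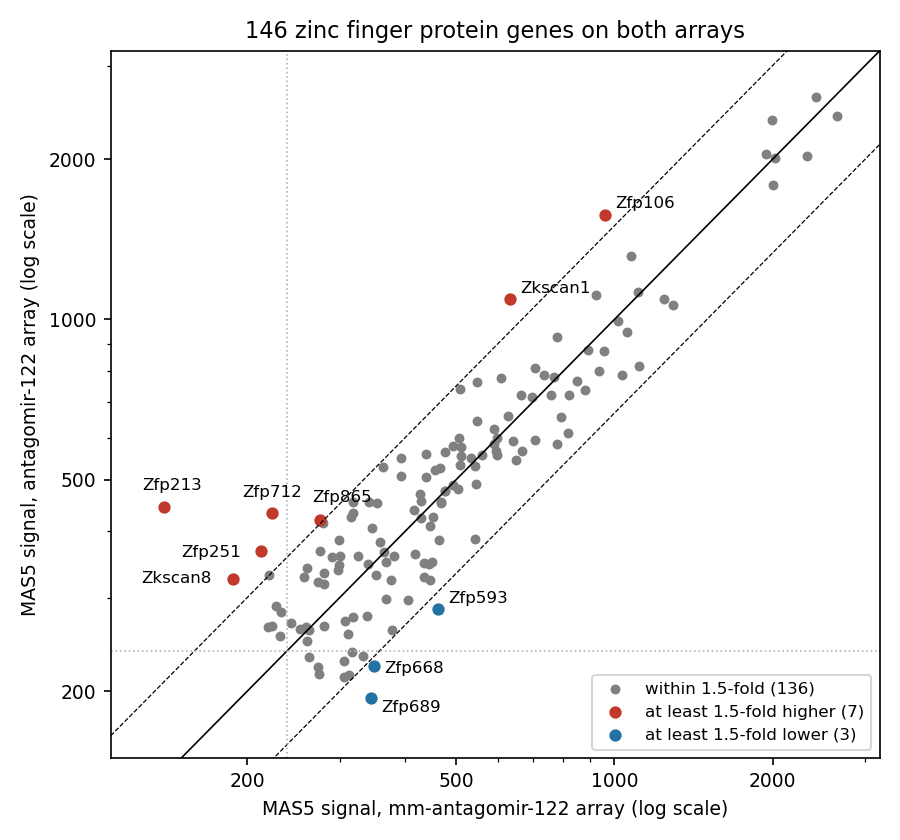
MAS5 signal of the brightest probe set of each of the 146 genes, control array on the horizontal axis and antagomir-122 array on the vertical axis, both on log scales. The solid line marks equal signals, dashed lines 1.5-fold and dotted lines the floor of 238.2. Red points are the 7 genes at least 1.5-fold higher and blue points the 3 at least 1.5-fold lower, and 6 of these 10 have 1 signal under the floor.

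The split between higher and lower depended on scaling. Of the 10 members past 1.5-fold as deposited, 70% were higher. After quantile normalization and after loess correction 6 members were higher and 7 lower, so that 46.2% were higher, and over all genes the share went from 66.1% to 58.7% and 58.2%. Centring on the median of all probe sets gave 6 higher and 5 lower (54.5%), against 51.6% over all genes. The bacterial and phage hybridization controls, spiked into the sample, had a median log2 ratio of -0.27. Scaling on them raised every ratio by that amount, which put 26 members higher and 0 lower, and 16.9% of all genes higher. All directions below are relative to the bulk of the genes.

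Relative error of MAS5 signals grows as signals fall, and most of these genes gave dim signals. All genes above the floor were divided into bands of equal number by mean signal, at 529.5 and 1277. The low band held 91 of the members, the middle band 48 and the high band 7. In the low band 5 members (5.49%) were at least 1.5-fold higher and 3 (3.3%) lower, against 8.31% and 4.23% of its 3335 genes. In the middle band 2 members (4.17%) were higher and 0 lower, against 4.5% and 2.58% of its 3334 genes. In the high band 0 of 7 members passed 1.5-fold in either direction, where 2.55% and 1.05% of the genes did. Ratios lay above 0 for 54.9%, 47.9% and 42.9% of the members of the low, middle and high band, and for 58.3%, 52.3% and 40.4% of all genes there. The medians were 0.03, -0.01 and 0.00 for the members and 0.08, 0.02 and -0.05 for all genes of the bands. In no band was the share of members past 1.5-fold above that of all genes, although the counts are small.

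**Figure D2:**
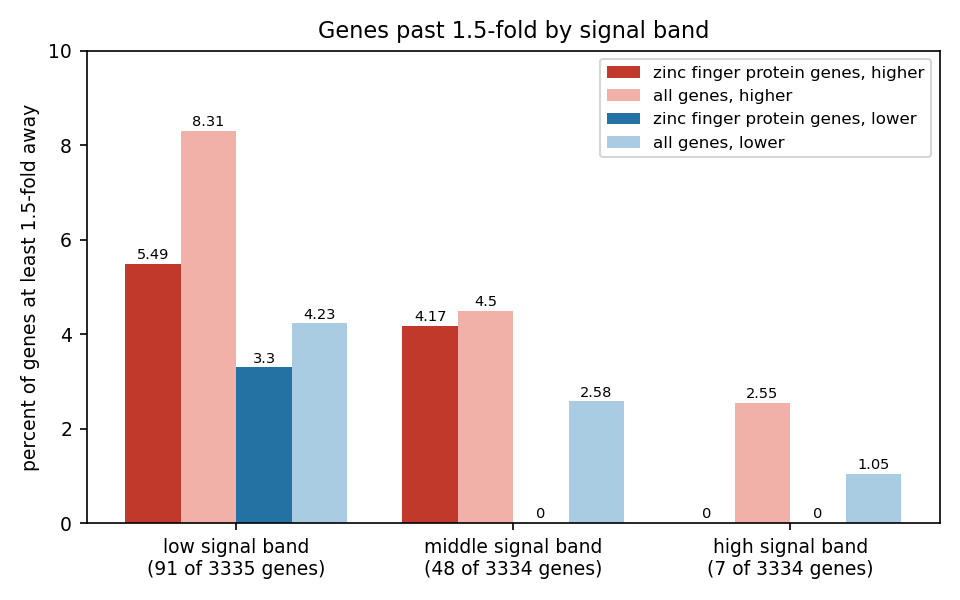
Percent of genes at least 1.5-fold higher (red) or lower (blue) in the antagomir-122 pool within bands of low, middle and high signal. Dark bars are the zinc finger protein genes (91, 48 and 7) and pale bars all genes of the band. The dark bars lie below the pale bars in every band.

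**Figure D3:**
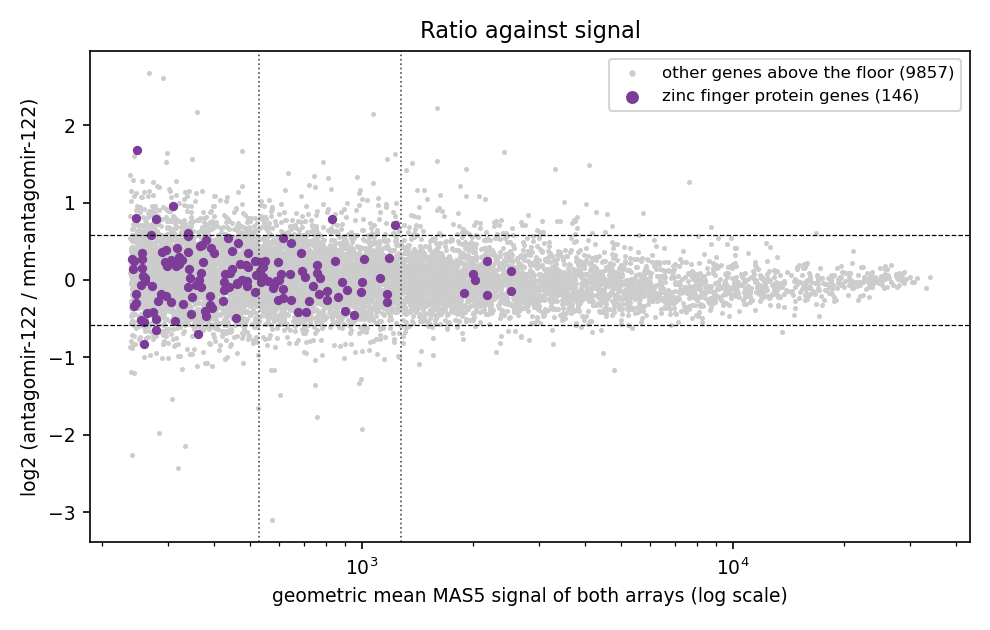
Log2 ratio against the geometric mean signal of both arrays (log scale). Purple points are the 146 zinc finger protein genes and grey points the other 9857 genes above the floor. Dashed lines mark 1.5-fold and dotted lines the limits of the signal bands. The purple points lie within the grey cloud, mostly in its left part.

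A member whose signal was under the floor on 1 array entered the list only through the other array, so its ratio was bound to differ from 0. There were 20 such members, 10 with the control signal under the floor and 10 with the antagomir-122 signal under it, and they made up 6 of the 10 past 1.5-fold. Of the 126 members with both signals above the floor, 3 were at least 1.5-fold higher (Zkscan1, Zfp106 and Zfp865) and 1 at least 1.5-fold lower (Zfp593), or 2.38% and 0.794%. Of all 9507 genes with both signals above the floor, 3.99% were higher and 2.14% lower. Where 1 signal was under the floor, a fold is given against the floor as a lower bound. Raising every signal under the floor to it left 6 members higher (4.11%) and 1 lower (0.685%), against 4.54% and 2.35% of all genes.

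Zkscan1 encodes a zinc finger protein with KRAB and SCAN domains, and its gene is known as the source of a circular RNA in liver. On its brightest probe set, 1418801_at, the signals were 1090.9 after antagomir-122 and 631.8 after the control, or 1.73-fold higher. The next, 1429152_at, had 566.9 and 407.3, a log2 ratio of 0.48. The other pair above the floor went the opposite way, 1447944_at with 273.6 and 391.5 (-0.52) and 1439908_at with 230.2, under the floor, and 319.4 (-0.47). The probe sets of Zkscan1 thus disagreed by 1.30 on the log2 scale, and their mean was 0.07. Which transcripts each probe set reads was not tested.

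Zfp106 encodes an RNA-binding protein needed to maintain motor neurons and muscle. Its brightest probe set, 1425332_at, had 1574.6 after antagomir-122 and 959.2 after the control, or 1.64-fold higher. The other probe sets above the floor had 1043.2 and 731.7 (log2 ratio 0.51) and 842.9 and 740.3 (0.19). All 3 lay above 0, with a mean of 0.47. Of the 7 genes that were at least 1.5-fold higher, Zfp106 and Zkscan1 were the ones with more than 1 probe set above the floor, and the mean of neither passed 1.5-fold.

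Zfp865 had signals of 419.2 and 275.9, or 1.52-fold higher, and fell just short of 1.5-fold under quantile normalization, loess correction, median centring and a pseudocount. Its other probe sets were under the floor on both arrays. Zfp213 had the largest ratio of the list by deposited signals, with 445.1 after antagomir-122 and 138.7 after the control. Because the control signal was under the floor, it was at least 1.87-fold higher. A second probe set of Zfp213 had 210.6 and 168.0, both under the floor. Zfp712 had 431.9 and 222.7 on a probe set with the suffix _x, which can cross-hybridise, and was at least 1.81-fold higher. Zfp251 had 366.9 and 212.3, at least 1.54-fold higher. Zkscan8, another KRAB and SCAN gene, had 325.8 and 187.8, at least 1.37-fold higher. For these last 4 genes, without detection calls, the control signal cannot be told from background.

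The lower genes were all dim. Zfp593, whose protein is known from ribosome biogenesis, had 285.2 after antagomir-122 and 461.7 after the control, or 1.62-fold lower, on a probe set with the suffix _x. Its other probe set had 70.4 and 66.3, both under the floor. Zfp689 had 194.6 and 344.6, at least 1.45-fold lower. Its other probe sets were under the floor on both arrays. They went opposite ways, 1427970_at with 152.4 and 103.4 and 1438733_at with 75.2 and 166.7. Zfp668 had 222.9 and 348.7, at least 1.46-fold lower. Just short of the threshold with both signals above the floor were Zfp503 with a log2 ratio of -0.54, and on the other side Zfp420, Zfp560 and Zfp628 with 0.57, 0.54 and 0.54. With 1 signal under the floor, Zfp758 and Zfp868 were at least 1.31-fold and 1.28-fold lower, and Zfp952 was at least 1.39-fold higher. The probe sets of Zfp319 went opposite ways, with 233.5 and 332.5 on the brightest (at least 1.396-fold lower) and 339.3 and 194.3 on 1436284_s_at (at least 1.424-fold higher), so that no direction can be given for it. At 1.4-fold by deposited signals the counts were 12 higher and 8 lower (8.22% and 5.48%), against 8.16% and 4.85% of all genes.

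The promoters of 118 members were matched by gene identifier in the RefSeq table (GRCm38.p6), over 300 bases around the gene start. Those of 3 genes that were at least 1.5-fold higher by deposited signals are printed. Zfp106 and Zkscan1 are the 2 of these with more than 1 probe set above the floor, which had the same sign in Zfp106 and opposite signs in Zkscan1. Zfp213 had the largest ratio, with its control signal under the floor. Capitals mark matches on either strand to CCAAT, to the GC box GGGCGG or to the ETS core CCGGAAG, searched together with TATAAA. Zfp106 lies at chr2:120563810-120564109 on the minus strand, Zkscan1 at chr5:138084834-138085133 on the plus strand and Zfp213 at chr17:23564177-23564476 on the minus strand.
Zfp106: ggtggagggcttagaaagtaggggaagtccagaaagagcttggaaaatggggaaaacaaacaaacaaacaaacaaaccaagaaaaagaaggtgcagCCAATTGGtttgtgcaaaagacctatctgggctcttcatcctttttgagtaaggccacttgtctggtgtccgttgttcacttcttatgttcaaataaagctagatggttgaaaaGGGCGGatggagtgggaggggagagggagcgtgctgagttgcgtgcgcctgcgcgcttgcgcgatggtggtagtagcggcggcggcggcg
Zkscan1: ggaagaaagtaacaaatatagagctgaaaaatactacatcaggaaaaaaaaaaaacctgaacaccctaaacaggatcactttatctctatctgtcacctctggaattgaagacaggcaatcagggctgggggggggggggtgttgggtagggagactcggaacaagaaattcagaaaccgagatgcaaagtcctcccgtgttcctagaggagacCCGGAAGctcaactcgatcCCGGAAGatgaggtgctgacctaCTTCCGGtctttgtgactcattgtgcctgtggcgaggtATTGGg
Zfp213: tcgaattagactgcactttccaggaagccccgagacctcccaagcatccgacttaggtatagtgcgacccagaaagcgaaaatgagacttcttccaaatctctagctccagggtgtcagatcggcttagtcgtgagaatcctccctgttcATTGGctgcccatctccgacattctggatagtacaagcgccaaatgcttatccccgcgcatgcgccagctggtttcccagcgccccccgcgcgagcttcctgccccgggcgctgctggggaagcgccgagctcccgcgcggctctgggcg
The Zkscan1 promoter held 3 matches to the ETS core and 1 to CCAAT, that of Zfp106 1 to the GC box and 2 to CCAAT, which overlap, and that of Zfp213 1 to CCAAT. The GC box stood in 60.2% of the members' promoters, in 64.1% of those of 8153 genes above the floor and in 35.9% of all 27025 promoters of 300 bases, 1 per gene. The ETS core stood in 22%, 18.5% and 9.12%, CCAAT in 45.8%, 38.3% and 37.9%, and TATAAA in 4.24%, 7.51% and 14.2%. The median number of CpG dinucleotides was 17 in the members, 21 in genes above the floor and 7 in all. Members with a GC box had a median log2 ratio of -0.07 (71 genes) and those without it 0.09 (47 genes). Members with and without the ETS core had 0.03 and 0.00, and with and without CCAAT -0.01 and 0.00. The same medians are not given for all genes above the floor, and these differences were not tested. A match is a description of letters and shows no binding.

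Members with a known molecular role were compared in the same way. Of a list of 36 genes with described roles, 26 were members, 8 were under the floor and Zfp143 and Zfp706 were not analysed here. Of the 26, Zkscan1 and Zfp106 were at least 1.5-fold higher, 0 were lower, and the median was 0.05. The other 24 lay within 1.5-fold (92.3%), as did 92.3% of all genes. Zfp598, the ubiquitin ligase that marks collided ribosomes, had 1786.8 and 2002.9, a log2 ratio of -0.16. Zfp91, a ubiquitin ligase of the NF-κB pathway, had 2028.3 and 2330.1 (-0.20), and its other probe set above the floor had -0.07. Zfp207, which binds Bub3 at kinetochores, had 2624.0 and 2420.1 (0.12), while its other 3 probe sets above the floor had -0.17, -0.22 and -0.31. Zfp451, a SUMO ligase, had -0.30. The RNA-processing members Zfp326 and Zfp638 had -0.09 and -0.16.

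Zfp622, a factor in the assembly of the large ribosomal subunit, showed the widest disagreement between probe sets above the floor. Its brightest probe set, 1438000_x_at, had 2370.8 after antagomir-122 and 1992.2 after the control, a log2 ratio of 0.25. A second, also with the suffix _x, had 570.9 and 586.1 (-0.04). The third, 1425030_at, without a suffix, had 180.9 and 501.7, at least 2.11-fold lower against the floor. With suffixed probe sets left out, Zfp622 therefore counted among the lower genes.

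Members of chromatin and transcription complexes also lay within 1.5-fold on their brightest probe sets. Zfp148 (ZBP-89), a GC-rich DNA binder, had 1314.7 and 1075.3 (0.29), and its 5 probe sets above the floor ran from -0.10 to 0.29. Zfp281, a related factor known from stem cells, had -0.19, and -0.32 on its other probe set. Zfp217, an oncogene in breast cancer, had 328.5 and 433.7 (-0.40). Zfp687 and Zfp592, which form a complex with Zmynd8, had 0.21 and 0.17, and all 3 probe sets of Zfp592 lay between 0.17 and 0.24. Zfp410, known to activate Chd4, had 549.3 and 393.3 (0.48), while Chd4 itself had 452.0 and 440.9 (0.04), both on suffixed probe sets. An unsuffixed probe set of Zfp410, 1451150_at, had 200.3 and 219.5, both under the floor. Zfp644, a partner of the methyltransferases Ehmt1 and Ehmt2, had -0.25, 0.67 and -0.43 on its 3 probe sets above the floor. Zfp384, Zfp692, Zfp335 and Zfp703 had 0.27, 0.09, -0.04 and -0.08. For Zfp292 the brightest probe set had 0.24, and the others above the floor had -0.18 and -0.35. Zfp318, which controls IgD expression in B cells, had 0.02 on the brightest of 4 probe sets above the floor and 0.72 on the one of these with the largest ratio.

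Members known for silencing repeats or imprinted genes lay within 1.5-fold. Zfp809, which silences retroviral sequences in embryonic cells, had 762.9 and 547.9 (0.48) on a suffixed probe set. Zfp445, which maintains imprints, had 2046.8 and 1941.9 (0.08), and -0.04 and 0.20 on its other probe sets. Zfp568, a repressor of a placental Igf2 transcript, had 583.2 and 590.6 (-0.02). Zfp57, the other imprint regulator of the list, was under the floor.

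The Zkscan and Zscan genes, whose proteins carry the SCAN dimerisation domain, formed 9 of the 146. Zkscan1 and Zkscan8 were at least 1.5-fold higher by their deposited signals (22.2%), 0 were lower, and the median was 0.02. Over all genes 5.12% were higher and 2.62% lower. With 9 genes the share is not a result, since the probe sets of Zkscan1 disagreed and the control signal of Zkscan8 was under the floor. Zkscan3, a repressor of autophagy genes, had 0.09 on the brightest of 3 probe sets. Zscan22, Zkscan17, Zscan21, Zkscan5, Zkscan14 and Zscan26 had 0.19, 0.02, -0.10, -0.21, -0.27 and -0.28. The 137 genes with a Zfp symbol had a median of 0.00, with 5 higher and 3 lower (3.65% and 2.19%).

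Agreement between probe sets set a scale for single genes. The SD of the difference between brightest and second probe set, divided by the square root of 2, was 0.25 on the log2 scale over 40 members (1.19-fold) and 0.28 over 3860 genes. Over the 589 genes of the low signal band, which holds 91 of the members, this SD was 0.35 (1.27-fold). In the high band it was 0.23. It includes real differences between transcripts and leaves out the spread between animals. Brightest and second probe set had the same sign in 27 of the 40 members (67.5%) and in 62.3% of the 3860 genes. Of these 40 members, all probe sets above the floor had the same sign in 20, above 0 in 9 and below 0 in 11. In 0 of the 40 did the mean over probe sets pass 1.5-fold. The probe sets differed by more than 1.5-fold among themselves in 6 genes, namely Zfp292, Zfp318, Zfp644, Zkscan1, Zfp319 and Zfp622. Zfp871 and Zfp771, among the brightest, had 2410.8 and 2651.6 (-0.14) and 2014.2 and 2020.4 (0.00). Their other probe sets above the floor had 0.03 and 0.03 for Zfp871 and -0.40 for Zfp771. Probe sets above the floor ran from -0.02 to 0.20 for Zfp110, -0.06 to 0.36 for Zfp787, -0.03 to 0.44 for Zfp24 and -0.03 to 0.46 for Zfp276. Those of Zfp467 and Zfp655 ran from -0.49 to 0.07 and -0.42 to 0.01. Only 1 probe set above the floor was behind each of the remaining 106 members, and 23 of the 146 brightest probe sets had a suffix that marks possible cross-hybridisation.

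**Figure D4:**
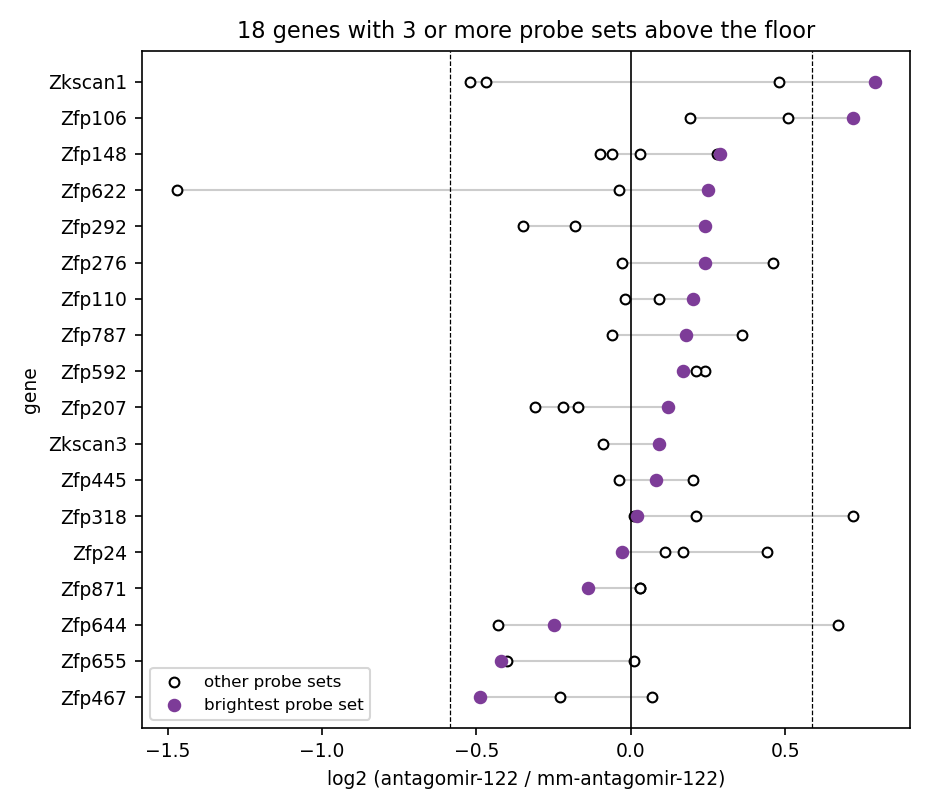
Log2 ratio on every probe set above the floor for the 18 genes with 3 or more. Filled points are the brightest probe set, open points the others, and dashed lines mark 1.5-fold. Zkscan1, Zfp644 and Zfp622 have probe sets far apart, and Zfp592 and Zfp871 have them close together.

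Because many of these genes sit in tandem clusters, neighbours were compared. In the RefSeq gene order, 40 members formed 17 runs of 2 or 3 adjacent protein-coding genes. In 8 runs all ratios had the same sign, above 0 in 3 and below 0 in 5, and in 9 runs they were mixed. Zkscan1 (0.79) neighbours Zscan21 (-0.10), and Zfp865 (0.60) neighbours Zfp524 (-0.13). Zfp668 (-0.65) neighbours Zfp646, a gene with 453.6 and 318.2 (0.51). The runs with the closest values were Zfp869, Zfp963 and Zfp866 at -0.05, -0.09 and -0.09, Zfp266 and Zfp846 at -0.25 and -0.29 (1 signal of Zfp846 under the floor), and Zfp617 and Zfp961 at -0.16 and -0.21. Zkscan14, Zkscan5 and Zfp655 had -0.27, -0.21 and -0.42, and Zfp398, Zfp282 and Zfp212 had 0.24, 0.39 and 0.00. In the other runs Zfp692 and Zfp672 had 0.09 and -0.06, Zfp623 and Zfp707 had 0.25 and 0.06, Zfp12 and Zfp316 had 0.45 and 0.03, and Zfp787 and Zfp444 had 0.18 and -0.21. Zfp397, Zfp35 and Zfp24 had 0.44, -0.26 and -0.03, Zfp110, Zfp128 and Zscan22 had 0.20, -0.44 and 0.19, and Zfp275 and Zfp92 had -0.15 and 0.27 (1 signal of Zfp92 under the floor). The highest and lowest gene differed by more than 1.5-fold in 5 of the 17 runs.

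**Figure D5:**
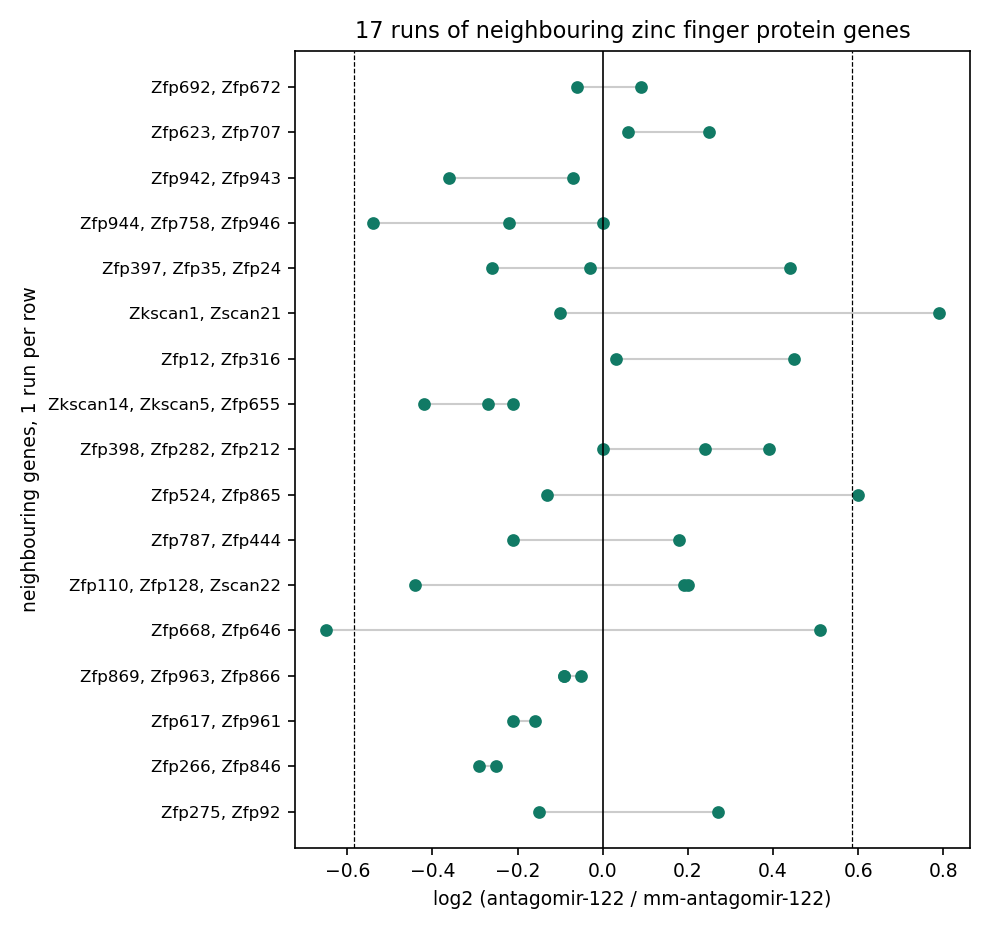
Log2 ratios of the 40 genes that neighbour another zinc finger protein gene of the list, 1 run of neighbours per row. The solid line marks equal signals and dashed lines 1.5-fold. Values lie on both sides of 0 in 9 of the 17 runs.

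A start region was shared within 2 of these sets of neighbours, and the regions are copies of each other. Zfp942 and Zfp943 are read in opposite directions from chr17:21962415-21962608, and Zfp944 and Zfp758 from chr17:22361351-22361512 (GRCm38.p6, plus strand). The overlap of the promoter windows is 194 bases for the first pair and 162 for the second, and all 162 bases of the second occur unchanged in the first. They are printed because 4 genes with the same start sequence can be compared, and capitals mark the shared 162 bases.
Zfp942 and Zfp943: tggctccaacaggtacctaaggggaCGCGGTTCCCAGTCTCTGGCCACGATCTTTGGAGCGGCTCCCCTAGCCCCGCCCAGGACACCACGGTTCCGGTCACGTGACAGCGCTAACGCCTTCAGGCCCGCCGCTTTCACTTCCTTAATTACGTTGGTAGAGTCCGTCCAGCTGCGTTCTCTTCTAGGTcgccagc
Zfp944 and Zfp758: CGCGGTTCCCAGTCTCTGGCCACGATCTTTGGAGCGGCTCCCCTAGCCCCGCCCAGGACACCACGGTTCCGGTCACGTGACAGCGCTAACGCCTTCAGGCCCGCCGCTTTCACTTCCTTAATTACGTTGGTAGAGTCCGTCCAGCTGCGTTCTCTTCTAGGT
This run of 162 bases was found in the promoters of these 4 genes and of 0 others in the table. Zfp942 had 350.1 after antagomir-122 and 448.9 after the control (log2 ratio -0.36), and Zfp943 had 566.8 and 594.4 (-0.07). Zfp944 had 364.9 and 363.8 (0.00), and Zfp758 had 215.1 and 312.9 (-0.54), with 215.1 under the floor. Zfp946, next to Zfp758, had 800.1 and 934.8 (-0.22). The ratios of the genes with the same start sequence thus spanned 0.00 to -0.54, each on 1 probe set, and as close paralogs their values are uncertain. Of the 118 promoters, 7 shared an exact run of 50 bases with a separate promoter, these 4 and Zfp931, Zfp975 and Zfp433.

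The partners of KRAB zinc finger proteins are the genes through which KRAB repressors are thought to act. Of a list of 35 co-repressor and heterochromatin genes, 26 were above the floor, 0 were at least 1.5-fold higher or lower on the brightest probe set, where 5.12% and 2.62% of all genes were, and the median was -0.04. Trim28, the scaffold that KRAB domains bind, had 4782.8 and 4588.9 (0.06), and Setdb1 had 782.3 and 937.2 (-0.26). Cbx5, which encodes heterochromatin protein 1 alpha, had the highest ratio, with 909.7 and 635.4 (0.52), and 0.54 on its other probe set. Mta1 and Mbd3, of the NuRD complex, were lowest with 1009.5 and 1426.7 (-0.50) and 400.7 and 529.7 (-0.40). Daxx had 0.27. A second probe set of Ehmt2 had 281.7 and 565.3 (2.01-fold lower), where its brightest had 2394.7 and 2723.8 (-0.19). Rsl1, a KRAB zinc finger repressor of male-biased liver genes, was under the floor by its mean, with 193.2 and 289.8 on a suffixed probe set.

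Other zinc finger families, taken by symbol, were counted in the same way. Of 29 Zbtb genes, 1 was at least 1.5-fold higher and 1 lower, with a median of 0.17. Zbtb18, a repressor known from neuronal development, had 653.2 and 1178.7, or 1.80-fold lower, and Zbtb21 had 318.5 and 194.1, at least 1.34-fold higher. Of 18 Klf and Sp genes, 0 passed 1.5-fold, with a median of -0.08. Of 11 Zc3h genes, 0 passed, with a median of 0.02, and the 3 Gata genes had a median of -0.08 with 0 past it. The 31 Trim genes had a median of 0.06, with Trim60 at 494.3 and 203.0, at least 2.08-fold higher. The 16 Zdhhc palmitoyltransferase genes had a median of 0.14, with Zdhhc14 1.98-fold higher. The 8 Zmynd, Zmym and Zmiz genes had a median of 0.27, with Zmym3 and Zmiz1 2.05-fold and 1.52-fold higher, and the 8 Zcchc genes had -0.11, with Zcchc2 1.72-fold lower. Over all genes the shares were those given above, and the differences between families were not tested.

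Cell composition of the pools was read from marker lists. All 9 hepatocyte markers above the floor lay within 1.2-fold, and their summed signal was 197451 and 198785. Leukocyte and macrophage markers were higher in the antagomir-122 pool, with a summed signal of 70816 against 48265. All 19 above the floor had ratios above 0, where 50.3% of all genes did. Of these 9 (47.4%) were at least 1.5-fold higher, where 5.12% of all genes were. Of 6 endothelial markers 1 was at least 1.5-fold lower, where 2.62% of all genes were, and 5 stellate markers had a median of 0.03. The 4 cholangiocyte markers were under the floor by their mean signal. Of these Krt19, Sox9 and Krt7 were under it on both arrays. Their signals were 108.8 and 159.5, 100.7 and 132.8, and 73.2 and 6.0, antagomir-122 first, so Krt7 went the other way. Epcam had 37.1 after antagomir-122 and 834.3 after the control on a suffixed probe set, at least 3.50-fold lower. With 1 of 4 markers above the floor, and on 1 array only, no direction is given for cholangiocytes. The part of leukocyte or cholangiocyte RNA in the ratios of the zinc finger genes was not tested, and in bulk tissue more cells of a type and more RNA per cell cannot be told apart.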

How the data were processed

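Per the submitters' processing notes the authors' deposited values were made with MAS5, and no version is given in the sources used here. They are linear signal intensities, and the 2% trimmed mean was 500.0 on both arrays, so the authors had scaled them to a common target. No detection calls or probe-level values were used here. Probe sets were named from the platform annotation, which can be old. Of 45101 probe sets, 34945 had 1 gene, 932 several and 9160 none, and 64 were controls. All 146 members matched the RefSeq gene table by gene identifier.

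The ratio was log2 of the antagomir-122 over the control intensity with no pseudocount, on the brightest probe set per gene. The floor of 238.2 was the 60th percentile of mean log2 intensity over non-control probe sets. Genes were named by rule: members past 1.5-fold, the 8 brightest, those nearest the floor, those with 3 or more probe sets, a role list, neighbouring members and the 4 co-repressor genes with the largest change. Zfp503, Zfp868, Zfp319, Zfp952, Zfp420, Zfp560, Zfp628, Zfp433, Zfp931, Zfp975, the remaining Zkscan and Zscan genes, Trim28, Setdb1, Chd4, Ehmt2, Rsl1 Epcam, Krt7, Krt19, Sox9 and the genes of other families were named after their values were seen, and the promoter search was also chosen after seeing the data. The members and lists were chosen with earlier results of these data known. Calculations used Python 3.11.15 and statsmodels 0.14.6 (loess span 0.3) and were tested on simulated data. The number of arrays limits the precision. Grouping by protein domains and by miR-122 sites was not analysed here.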

Additional observations from a re-analysis of the deposited data

How the results depend on the processing

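With 1 array per group no replicate could be left out, and no paired analysis was possible because each group has 1 array. The members' counts of 7 higher and 3 lower kept within 1.5 times when probe sets were averaged, when suffixed ones were left out and with a pseudocount of 53.6. The genes changed in part, since 8 of the 10 were shared in each setting. Averaging dropped Zfp106 and Zkscan1. Without suffixed probe sets Zfp712 and Zfp593 dropped out, and Zfp644 (higher) and Zfp622 (lower) came in, of 133 genes. Median centring gave 5 lower (3.42%, against 3.75% of all genes). Quantile normalization and loess correction gave 7 lower each (4.79%, against 3.22% and 3.28%), so the members' share of lower genes went from below that of all genes to above it. Scaling on the hybridization controls gave 26 higher and 0 lower, 119 members above 0, and medians of 0.28 for the members and 0.24 for the co-repressor list. With the floor at the 40th percentile 18 were higher and 12 lower of 244, with no floor 39 and 33 of 324, and with the floor at the 80th percentile 2 and 0 of 35, with 15 above 0. At the 40th percentile that was 7.38% and 4.92% of members against 8.8% and 4.03% of all genes, with no floor 12% and 10.2% against 15.2% and 9.44%, and at the 80th percentile 5.71% and 0% against 3.25% and 1.73%. Raising signals under the floor to it left 1 member lower. Among the 27 members with a second probe set of the same sign 2 were higher and 0 lower (7.41% and 0%, against 5.2% and 2.25% of 2403 genes). At 1.4-fold 12 were higher and 8 lower, and at 2-fold 1 and 0 by deposited signals. That gene, Zfp213, has a control signal under the floor, and with bounds against the floor 0 members were 2-fold higher or lower. The members' median was -0.05 after median centring, as was that of all genes. After quantile normalization and after loess correction it was -0.04, where that of all genes was 0.00. In the other settings without control scaling the members' median stayed between -0.03 and 0.02. Past 1.5-fold on every probe set above the floor, an alternative added after seeing the data, were 5 higher and 3 lower. All 8 have 1 probe set above the floor and so pass by construction, and of the 40 members with more, 0 passed. Of the 80 genes named by rule, Zkscan1, Zfp292 and Zfp622 moved by more than 0.28 with the mean over probe sets. Genes named after their values were seen are not among the 80, and of these Zfp319 went from -0.51 to a mean of 0.15. Control scaling adds the same amount to every gene and turned the sign of 27 of the 80, all from below 0 to above it. Median centring, quantile normalization and loess correction turned 4 each, and 0 of the 10 members past 1.5-fold changed sign under these 4 scalings. Control scaling and median centring each add the same amount to every log2 ratio, and it is smaller than a 1.5-fold change. Neither could therefore turn the sign of these 10. Quantile normalization and loess correction also moved their ratios by less than 1.5-fold. The unchanged signs thus do not show whether the directions are reliable.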
